A study of Mus musculus with 10 samples.

Results

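ISG15 is a small ubiquitin-like protein that is joined to other proteins, and the enzymes that attach it and take it off were described here by the mRNA levels of their genes in neonatal mouse lung. The genes listed were Isg15, Usp18, Herc6, Uba7 and Ube2l6, 5 in all. A probe set was taken where the platform annotation gave it a single gene symbol from that list, which found 9 of the 45101 probe sets of the array, for 4 of the 5 genes. Isg15 itself has no probe set with its symbol alone, because the annotation of its only probe set carries a further symbol, so no level is given for the modifier. The genes were chosen with their smoke and control levels known, so those levels, and the ranks and likenesses drawn from them, are described below without a test.

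The smoke group held 6 C57BL/6J mice aged 2 weeks. From the age of 1 day they spent 1 hour a day for 7 days, and then 2 hours a day for 7 days, beside the mother in a smoke chamber, breathing cigarette smoke whose particulate matter averaged 90 mg in a cubic metre of air. The control group was 4 C57BL/6J mice of the same age, kept apart in filtered air. RNA of each lung went onto 1 Affymetrix Mouse 430 2.0 array, so each value is 1 array of 1 mouse. The labels leave sex unknown and name no litter or array batch, so the spread between arrays is all that the errors below cover, and the number of arrays limits the precision. The question put to the arrays was which genes of the lung respond to smoke in the first weeks of life.

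ISG15 conjugation runs in the order of ubiquitin conjugation. An activating enzyme (E1, the product of Uba7) charges ISG15, a conjugating enzyme (E2, from Ube2l6) receives it, and a ligase (E3, in mice mainly from Herc6) passes it to lysines of target proteins. The protease from Usp18 removes ISG15 again, and apart from that activity it binds the receptor subunit IFNAR2 and dampens type I interferon signalling. All of these genes are known as interferon-induced, through a transcription factor complex that holds STAT2 and IRF9 and binds the interferon-stimulated response element (ISRE) in promoters.

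RefSeq promoter sequences of GRCm38.p6, from 250 bases before to 50 bases after the start of the gene, were available for 4 of the 5 genes, and are shown because the genes share this known mode of induction. Usp18 had none. They are printed 5′ to 3′ on the strand of the gene, with capitals where a script found, on either strand, the interferon regulatory factor (IRF) core AANNGAAA, which recurs within the ISRE.
Isg15, chr4:156200769-156201068, minus strand: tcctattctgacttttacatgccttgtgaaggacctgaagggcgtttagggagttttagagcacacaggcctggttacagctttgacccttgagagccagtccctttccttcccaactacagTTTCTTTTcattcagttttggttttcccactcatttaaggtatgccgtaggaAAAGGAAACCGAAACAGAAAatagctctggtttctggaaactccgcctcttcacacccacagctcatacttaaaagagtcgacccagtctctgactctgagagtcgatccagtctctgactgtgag
Uba7, chr9:107975317-107975616, plus strand: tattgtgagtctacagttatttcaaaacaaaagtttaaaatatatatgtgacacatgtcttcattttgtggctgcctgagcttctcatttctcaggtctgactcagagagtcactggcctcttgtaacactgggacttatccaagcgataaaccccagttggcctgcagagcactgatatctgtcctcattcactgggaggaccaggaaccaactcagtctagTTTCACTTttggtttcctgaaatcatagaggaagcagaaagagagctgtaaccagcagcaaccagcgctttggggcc
Herc6, chr6:57580742-57581041, plus strand: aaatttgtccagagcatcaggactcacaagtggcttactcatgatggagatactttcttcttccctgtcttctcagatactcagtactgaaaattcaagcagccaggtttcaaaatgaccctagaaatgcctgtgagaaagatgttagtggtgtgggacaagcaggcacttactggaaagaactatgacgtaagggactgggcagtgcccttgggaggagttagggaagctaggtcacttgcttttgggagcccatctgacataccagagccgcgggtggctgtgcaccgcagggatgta
Ube2l6, chr2:84798578-84798877, plus strand: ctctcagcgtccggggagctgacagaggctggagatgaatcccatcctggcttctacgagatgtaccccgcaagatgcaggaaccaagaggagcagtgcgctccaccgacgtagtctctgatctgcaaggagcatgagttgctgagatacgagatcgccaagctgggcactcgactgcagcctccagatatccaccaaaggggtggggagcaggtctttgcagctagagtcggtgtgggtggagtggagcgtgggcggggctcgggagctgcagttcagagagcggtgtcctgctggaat
The Isg15 window held 4 IRF cores, 3 of them overlapping in the longer run of capitals and 1 apart, on the minus strand. The Uba7 window held 1, also on the minus strand, and the Herc6 and Ube2l6 windows held 0. Of all 32851 promoter windows of this length 23.9% held an IRF core, so a single match is common. The motif TTCNNNGAA, the core of the gamma-activated site bound by STAT dimers, reads the same on both strands and was in 8.30% of all windows and in none of the 4. A match is a description of the letters only.

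The arrays differed in ways that the groups do not explain, and these bear on single values below. The ratio of actin signal at the 3′ and 5′ ends, which is high in degraded RNA, was 31.6 and 29.4 on smoke arrays 1 and 2; it was 2.18 and 2.98 on smoke arrays 5 and 6, and 3.96 to 10.4 on the control arrays. The same ratio for Gapdh did not mark smoke array 1, with 4.76 on it and 9.16 on smoke array 2, against 4.82 to 5.89 on the control arrays. Xist, high in female cells, had a log2 intensity of 14.09 and 14.01 on smoke arrays 5 and 6, 8.80 to 9.38 on the other smoke arrays, 13.96 and 13.98 on control arrays 2 and 4, and 8.25 and 9.16 on control arrays 1 and 3. The lung identity was borne out by Sftpc, a surfactant gene, at a log2 intensity of 14.4 in both groups. Of 14 neutrophil markers, listed with earlier results of these data known, 10 were tested. In limma 4 fell (S100a8, S100a9, Stfa2l1 and Mmp8, adjusted p = 0.0469 or lower), where 0.702% of all genes tested were called lower. The summed intensity of the 10 was 9366 to 19008 in smoke arrays and 26087 to 40243 in control arrays, of which S100a8 and S100a9 made up 68.3% to 84.7% and 78.4% to 87.8%. Without those 2 genes the sum was 2464 to 3357 in smoke arrays and 4365 to 5623 in control arrays. Of the other 6 neutrophil markers tested none passed. Their log2 differences were -0.84 for Camp, -0.77 for Lcn2, -0.47 for Mmp9, -0.26 for Csf3r, -0.064 for Ltf and 0.0012 for Ngp. The median over the 10 was -0.80. None of the markers of macrophages (10 tested), plasmacytoid dendritic cells (5), B cells (5), T cells (3), lung epithelium (5) or endothelium (4) passed. Their median log2 differences were, in that order, -0.51, 0.40, 0.53, -0.20, 0.03 and -0.38, so not passing does not show that these markers were unchanged. In whole lung RNA, fewer cells of a type and less RNA per cell cannot be told apart, and the part of the neutrophil markers in the levels below was not tested.

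All 4 genes with a value were lower in smoke lungs by the mean of the probe set that stands for the gene, the brightest of its tested ones. The median log2 difference over the 4 was -2.38, smoke minus control, beside a median of 0.06 over all 13382 genes tested. In 3 of the 4 genes, Usp18, Herc6 and Uba7, every smoke array lay below every control array, where 2.11% of all genes tested were separate and lower in this way. The contrast chose the genes, so nothing is read from that count. Usp18 and Herc6 had the larger differences and stood at places 10 and 12 from the most lowered gene, while Ube2l6 and Uba7 stood at places 78 and 193.

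**Figure D1:**
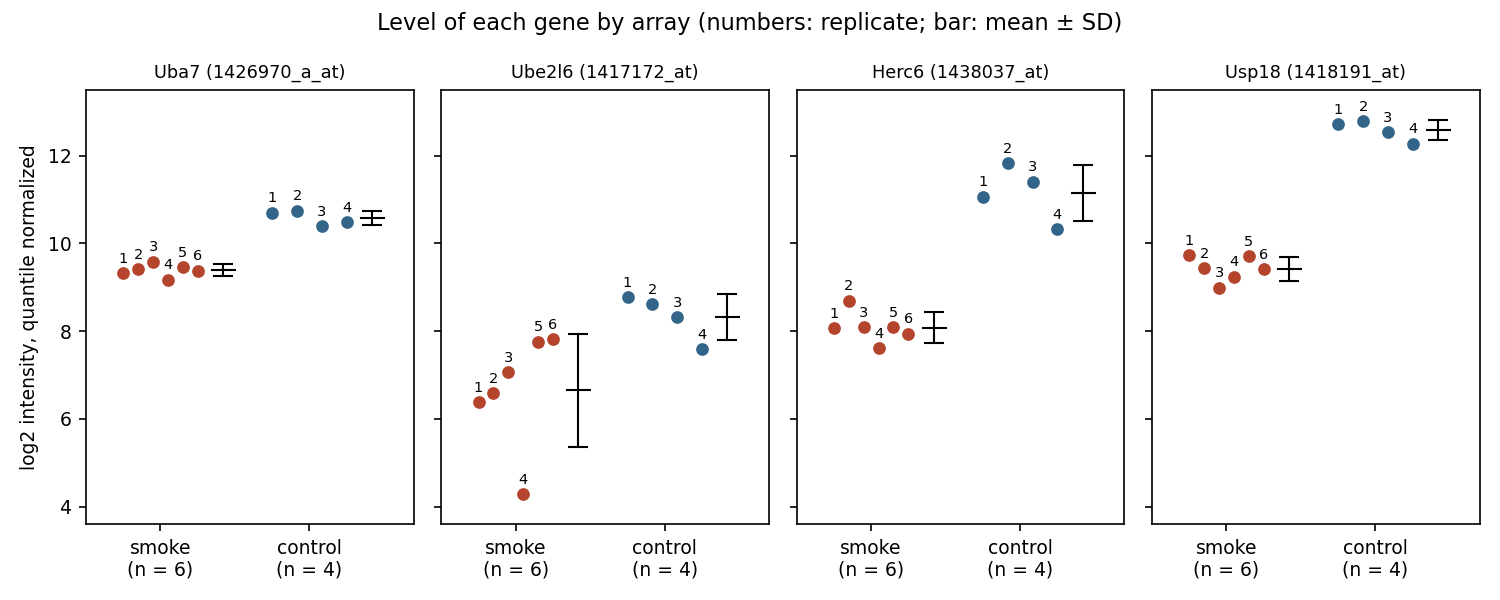
Log2 intensity after quantile normalization for Uba7, Ube2l6, Herc6 and Usp18 in 6 smoke arrays (left in each panel) and 4 control arrays (right). Points are arrays, numbered by replicate, and the bars give the mean and SD; the groups are apart for Uba7, Herc6 and Usp18 and overlap for Ube2l6, where smoke arrays 5 and 6 lie above control array 4.

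Uba7, the E1 that activates ISG15, had the smallest difference and the tightest values. Its deposited intensity on probe set 1426970_a_at had a lowest value of 600.1, a median of 668.5 and a highest of 786.5 in smoke lungs, and was 1711, 1681, 1343 and 1467 in control lungs 1 to 4. No smoke lung came near a control lung. On the log2 scale, after normalization, the level was 9.39 ± 0.14 (SD, n = 6) in smoke lungs and 10.6 ± 0.17 (SD, n = 4) in control lungs, a difference of -1.19 ± 0.16 (SE of the fit) or 2.28-fold lower.

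The other probe sets of Uba7 were dimmer. Probe set 1426971_at also kept the groups apart, with intensities of 295.9 to 408.7 in smoke lungs and 723.3 to 944.7 in control lungs, and a log2 difference of -1.36 ± 0.20. Probe set 1437317_at did not, with 21.8 to 388.3 in smoke lungs and 200.5 to 311.3 in control lungs. Its SD on the log2 scale was 1.40 in smoke lungs and 0.25 in control lungs, since smoke array 3 stood at -3.48 from the control mean and smoke array 4 at 0.44. The mean difference of -1.06 ± 0.62 on that probe set therefore rests on arrays that disagree with each other.

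Ube2l6, the E2 that carries ISG15 to the ligase, had the most scattered smoke values among the probe sets that stand for the genes. Its only probe set, 1417172_at, was dim, at the 52.1st percentile of probe sets by mean level. The deposited intensity had a lowest value of 26, a median of 123.4 and a highest of 203.0 in smoke lungs, and was 436.7, 378.7, 304.3 and 190.4 in control lungs 1 to 4. The groups overlapped, because smoke lungs 5 and 6, at 203.0 and 200.4, were above control lung 4. The log2 level was 6.65 ± 1.30 (SD, n = 6) in smoke lungs and 8.33 ± 0.53 (SD, n = 4) in control lungs, a difference of -1.68 ± 0.60 or 3.20-fold lower. Smoke array 4 stood at -4.04 from the control mean, and without it the difference was -1.20. The 2 smoke arrays nearest to the controls were those with low actin ratios and high Xist, whose part in this was not tested.

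Herc6, the main ISG15 ligase of the mouse, was measured by 4 probe sets, 3 of them bright enough to be tested. On the brightest, 1438037_at, the deposited intensity had a lowest value of 224.3, a median of 268.5 and a highest of 364.5 in smoke lungs, and was 2215, 3746, 2775 and 1307 in control lungs 1 to 4. The groups were far apart, and the control lungs were spread more widely than the smoke lungs. The log2 level was 8.08 ± 0.35 (SD, n = 6) in smoke lungs and 11.2 ± 0.64 (SD, n = 4) in control lungs, a difference of -3.07 ± 0.29 or 8.42-fold lower.

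The dimmer Herc6 probe sets had smaller differences. They were -2.40 ± 0.48 for 1432026_a_at, -1.62 ± 0.49 for 1431095_a_at and -2.13 for 1453757_at, which lay under the filter on dim probe sets, at the 34.5th percentile, with 1 smoke array at the floor. Groups were separate on 1432026_a_at and, by 0.07 on the log2 scale, on 1453757_at, but not on 1431095_a_at. There smoke arrays 5 and 6 had log2 levels of 8.33 and 8.63, inside the control range of 7.94 to 9.60, while smoke arrays 1 to 4 had 6.37 to 6.82. On 1432026_a_at the same 2 arrays, at 7.36 and 7.58, were again the highest of the smoke group, and on 1438037_at, at 8.09 and 7.94, they were not. Probe sets of 1 gene thus gave unlike values on the arrays with the lowest actin ratios. Control array 4 was the lowest control on all 4 probe sets of Herc6 and also had the lowest actin ratio of the controls, at 3.96. It was the lowest control for Usp18 and Ube2l6 as well, and not on the probe sets of Uba7. The part of RNA quality in this was not tested.

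**Figure D2:**
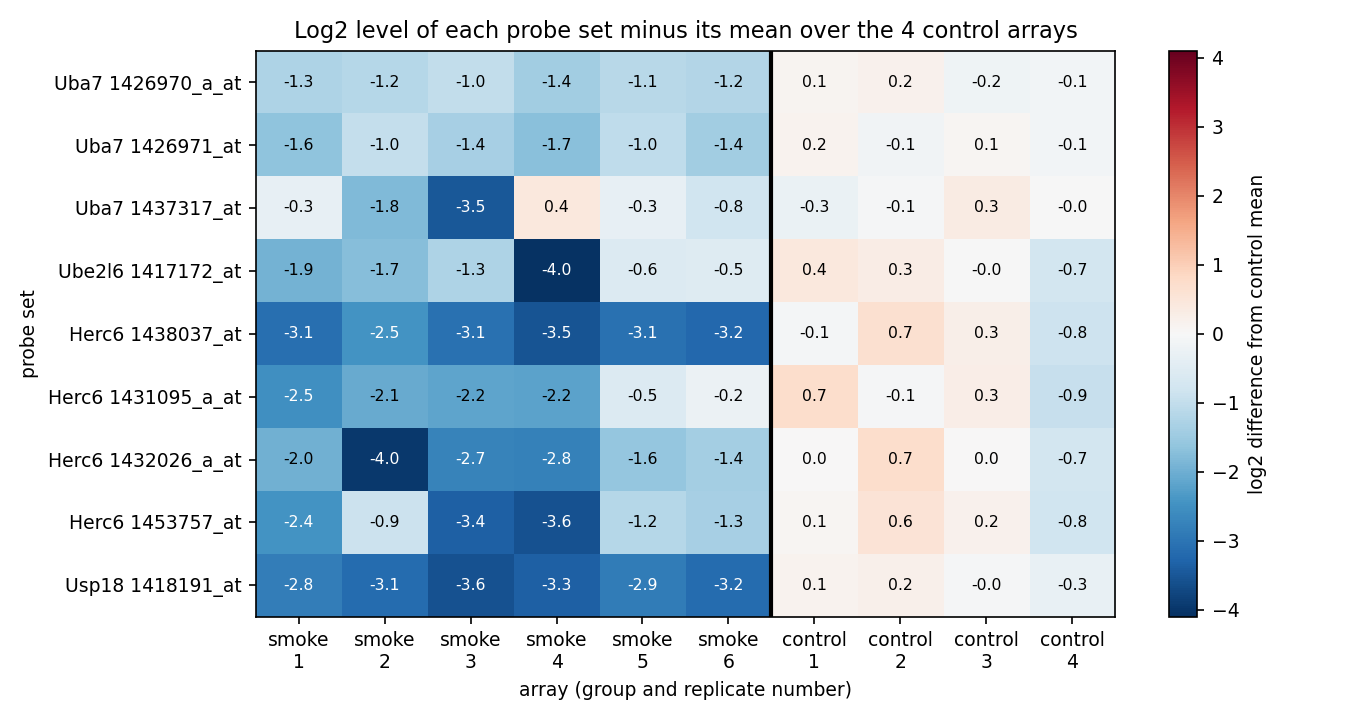
Log2 level of each of the 9 probe sets (down the page) on each array (smoke arrays 1 to 6, then control arrays 1 to 4), minus the mean of the 4 control arrays for that probe set. Usp18, Herc6 1438037_at and the upper 2 Uba7 probe sets vary less across the smoke arrays than the other probe sets do. Herc6 1431095_a_at and 1432026_a_at and the Ube2l6 probe set are nearest to the controls on smoke arrays 5 and 6.

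Usp18, the protease that removes ISG15, was the gene with the largest difference. The intensity of its only probe set, 1418191_at, had a lowest value of 519.8, a median of 676.4 and a highest of 889.1 in smoke lungs, and was 6680, 7509, 6120 and 4738 in control lungs 1 to 4. The brightest smoke lung, at 889.1, was far below the dimmest control lung, at 4738. Its log2 level was 9.42 ± 0.28 (SD, n = 6) in smoke lungs and 12.6 ± 0.23 (SD, n = 4) in control lungs, a difference of -3.16 ± 0.19 or 8.91-fold lower. The distance from the highest smoke to the lowest control array was 2.54 on the log2 scale, against 1.63 for Herc6 and 0.81 for Uba7.

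Of the 9 probe sets 8 passed the filter on dim values, and 5 of these kept the groups apart, where 2.83% of all tested probe sets were separate and lower. The dim 1453757_at of Herc6 did so as well, by the narrow gap given above. The contrast chose the genes, so nothing is read from this count either. The difference of Usp18 ran from -3.26 to -3.07 over every alternative setting and single omission tried. For Herc6 1438037_at the range was -3.35 to -2.85, for Uba7 1426970_a_at -1.27 to -1.14 and for Ube2l6 -2.25 to -1.12. The order in which Usp18 and Herc6 come is within their standard errors, and so is that of Ube2l6 and Uba7.

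Whether the genes vary together among smoke lungs is not part of the contrast that chose them, and was tested over the 6 smoke arrays for all 6 pairs. No pair passed. The highest Pearson correlation was that of Uba7 with Ube2l6 (r = 0.75, exact two-sided permutation p = 0.104, which did not pass after adjustment over the 6 pairs; Spearman rho = 0.60, exact p = 0.242, adjusted p = 0.725), and it was 0.52 without the 2 arrays farthest from the median of Uba7. Herc6 with Uba7 had r = 0.51 (exact permutation p = 0.286, adjusted p = 0.658) and rho = 0.71 (exact p = 0.136, adjusted p = 0.725). The other 4 pairs had r of -0.23 to 0.40 and adjusted exact permutation p of 0.658 to 0.756. Single arrays weighed heavily in these values. Without smoke array 4 the r of Uba7 with Ube2l6 was 0.23 and that of Herc6 with Uba7 was 0.018. Without smoke arrays 1 and 2, of high actin ratio, Herc6 had r = 0.95 with Uba7 and 0.89 with Ube2l6. Those r are over 4 arrays, of which smoke array 4 was the lowest for each of the 3 genes. The omission of the 2 farthest arrays above also left 4. With 6 arrays, 0.00139 is the smallest p that the permutation of Pearson's r can give, and a p that misses the threshold does not show that the genes vary apart.

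For each of the 4 genes, the 3 genes outside the machinery with the most similar course over the 10 arrays were listed. Likeness was measured by the root mean square difference of log2 deviations from the control mean. Nearest to Usp18 were Gbp3, Ms4a4c and Gbp6, at 0.28, 0.31 and 0.34. The same 3 genes were nearest to Herc6, at 0.29 for Gbp3, 0.24 for Ms4a4c and 0.30 for Gbp6, and Usp18 and Herc6 were 0.39 from each other. Nearest to Uba7 were Trim21, Tdrd7 and Ddx58, at 0.11, 0.24 and 0.24. Nearest to Ube2l6 were Ifit1bl2, Cfb and Ifitm3, at 0.42, 0.59 and 0.67. The other pairs of the 4 genes were 0.96 to 1.54 apart. This likeness is a description over 10 arrays that all share the same group contrast, so it depends on the size of the smoke-control difference. How much of it that size accounts for was not computed. The difference was -3.08 for Gbp3, -3.00 for Ms4a4c and -3.02 for Gbp6. It was -1.25 for Trim21, -0.97 for Tdrd7 and -1.18 for Ddx58, and -1.67 for Ifit1bl2, -1.44 for Cfb and -1.76 for Ifitm3.

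Genes with a related role were taken from a list of 56, chosen by role with earlier results of these data known, and 42 were tested. The question was how the ubiquitin-like systems beside ISG15, and the signalling upstream of it, stood in the same lungs. Of the 42, 2 fell and none rose (limma, adjusted p under 0.05), where 0.702% of all genes tested were called lower and 0.0224% higher. At an unadjusted p under 0.05 the numbers were 5 lower and 2 higher, beside 598 lower and 769 higher of all 13382 genes tested. The median log2 difference of the list was -0.05, beside 0.06 over all genes.

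None of the 33 tested genes that act as modifiers, enzymes, proteases or integrin subunits passed in limma. At an unadjusted p under 0.05, 2 were lower (Trim25 and Itgal) and 2 higher (Ube2f and Usp21), beside 598 and 769 of all 13382 genes. The log2 differences of the 33 ran from -0.68 to 0.70 on the brightest probe set of each gene. Of 53 other tested probe sets of all the related genes, those of signalling included, 0 passed in limma (adjusted p = 0.310 or higher). Their differences ran from -2.004, for a probe set of the signalling gene Jak1, to 0.72. Outside signalling the lowest was -1.40, for a probe set of Herc4. Among the E1 enzymes 5 of 5 did not pass. Uba6, which activates ubiquitin and FAT10, was at 0.34 ± 0.18 (limma, adjusted p = 0.550). Dimmer probe sets of Uba6 were at -0.80 ± 0.46, -0.99 ± 0.52 and 0.11 ± 0.22 (limma, adjusted p = 0.573, 0.542 and 0.884). Among the E2 enzymes 8 of 8 did not pass, with Ube2f, an E2 of NEDD8, highest at 0.69 ± 0.27 (limma, adjusted p = 0.416). Dimmer probe sets of Ube2f were at 0.23 ± 0.16, 0.21 ± 0.23, 0.39 ± 0.18 and -0.33 ± 0.22 (limma, adjusted p = 0.495 to 0.777). Nedd8 itself, the modifier that activates cullin ligases, was at -0.47 ± 0.32 (adjusted p = 0.642). Uba1 and Ube2l3, the closest relative of Ube2l6, were not analysed here, and Ubd, the gene of FAT10, lay under the filter on dim probe sets.

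On their brightest probe sets, the other HERC ligases gave values near 0 on the same arrays on which Herc6 was at -3.07. Herc1 and Herc2, the large members of the family, were at -0.20 ± 0.18 and -0.21 ± 0.17 (adjusted p = 0.718 and 0.698). Herc3 was at 0.24 ± 0.21 (adjusted p = 0.727) and Herc4 at 0.0028 ± 0.17 (adjusted p = 0.998), the sign of the last turning with the scaling. Dimmer Herc4 probe sets were at -1.40 ± 0.64, -0.34 ± 0.32 and -0.05 ± 0.29 (limma, adjusted p = 0.500, 0.743 and 0.967). A dimmer Herc2 probe set was at 0.22 ± 0.29 and a dimmer Herc3 probe set at 0.46 ± 0.34 (limma, adjusted p = 0.819 and 0.664). Of other proteases reported to act on ISG15, Usp5 was at 0.14 ± 0.20 and Usp14 at 0.15 ± 0.38 (adjusted p = 0.834 and 0.910), and none of 7 passed. No test of Herc6 against these genes was made, since its difference chose it.

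Trim25, a ligase of the RIG-I pathway that can also attach ISG15, came closest to the threshold among the enzymes. Its intensity had a lowest value of 3621, a median of 4069 and a highest of 7536 in smoke lungs, against 6320 to 8407 in control lungs. On the deposited scale 4 of 6 smoke lungs were below every control lung, and after quantile normalization 5 of 6 were, at a log2 difference of -0.68 ± 0.18 (limma, adjusted p = 0.201). Dimmer probe sets of Trim25 were at -0.74 ± 0.23 and -0.90 ± 0.32 (adjusted p = 0.310 and 0.385). When smoke arrays 1 and 2, of high actin ratio, were left out, the first probe set passed, at -0.90 (adjusted p = 0.00646).

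Both genes that fell belong to interferon signalling, Irf7 and Irf9. Irf7, the factor that amplifies interferon production, had intensities with a lowest value of 303.0, a median of 386.5 and a highest of 547.8 in smoke lungs, against 883.0 to 1465 in control lungs. It fell by 1.57 on the log2 scale (SE 0.22; limma, adjusted p = 0.00523), and was below every control in 6 of 6 smoke arrays. Irf9, the DNA-binding part of the complex that induces these genes, had 626.1 to 1078 in smoke lungs, against 1954 to 2520 in control lungs. Its fall was -1.46 ± 0.20 (limma, adjusted p = 0.00381), again in 6 of 6 smoke arrays. Both calls held in every alternative tried.

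The partner of Irf9, Stat2, had separate groups on its brighter probe set but did not pass, and its probe sets disagreed. On 1421911_at the intensity was 11.7 to 180.7 in smoke lungs and 532.6 to 750.4 in control lungs, a log2 difference of -3.37 ± 0.73 (limma, adjusted p = 0.0849). Smoke arrays 1 and 3 were at the floor there, so that value depends on the floor. With the floor at the 25th percentile, with array weights and under the rule after the series' design text, Stat2 was called lower. On 1450403_at it was 81.7 to 233.8 in smoke lungs and 117.8 to 222.9 in control lungs, a difference of -0.34 ± 0.29 (adjusted p = 0.712). The receptor genes Ifnar1 and Ifnar2 (IFNAR2 is the docking site of USP18) were at -0.05 ± 0.25 and -0.03 ± 0.25, and the kinases Jak1 and Tyk2 at -0.19 ± 0.26 and 0.17 ± 0.25 (adjusted p = 0.822 to 0.982). Dimmer probe sets of Ifnar1, at -1.46 ± 0.83, and of Jak1, at -2.004 ± 0.76 and -0.93 ± 0.45, were lower without passing (limma, adjusted p = 0.572, 0.408 and 0.518). A dimmer Ifnar2 probe set was at 0.02 ± 0.34 (limma, adjusted p = 0.991). Skp2, part of the ubiquitin ligase that turns over USP18, was at 0.02 ± 0.26 (adjusted p = 0.987). Itgal, a subunit of the integrin LFA-1 that is a receptor of secreted ISG15, was at -0.62 ± 0.24 with all 6 smoke arrays below the controls, and did not pass (adjusted p = 0.415), and its partner Itgb2 was at -0.34 ± 0.25 (adjusted p = 0.656).

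**Figure D3:**
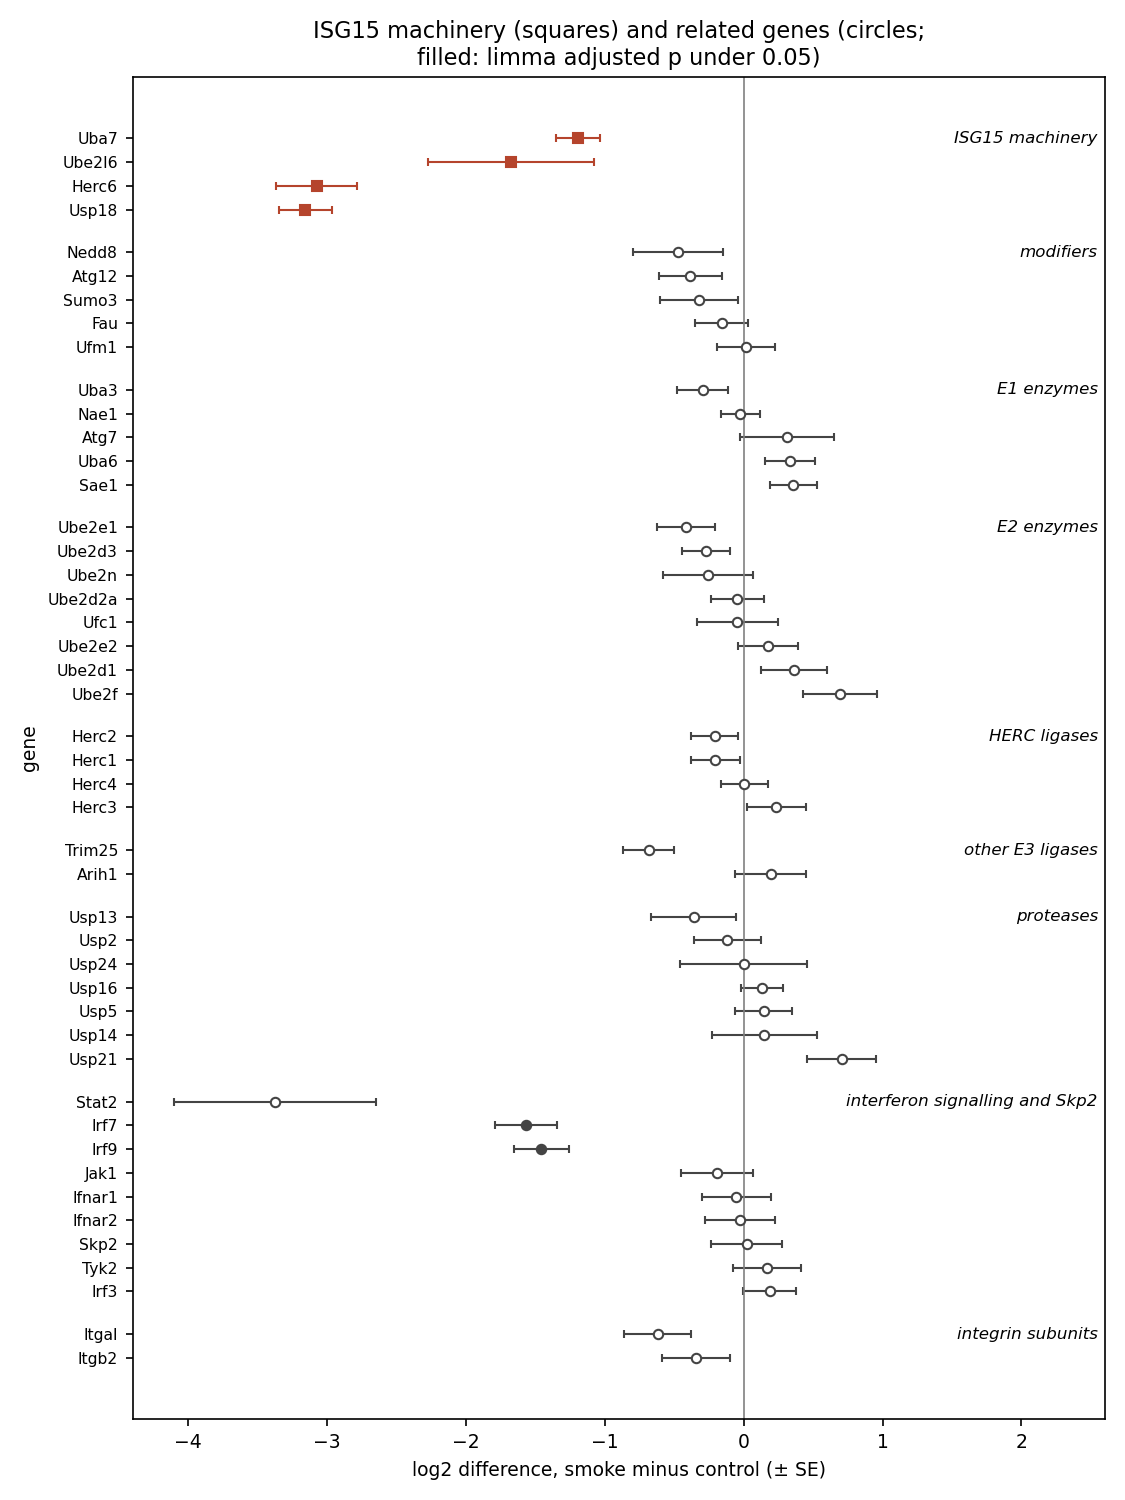
Log2 difference, smoke minus control, with SE, for the 4 genes of the ISG15 machinery (squares, no test) and the 42 tested related genes (circles, filled where limma's adjusted p is under 0.05), grouped by role. Apart from Stat2, Irf7 and Irf9, the related genes lie between -0.68 and 0.70 on the brightest probe set of each.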

How the data were processed

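Total RNA of 6 smoke and 4 control lungs (Trizol extraction) was amplified to labelled cRNA for 1 array per mouse, per the labels' protocols. The authors deposited 1 linear intensity per probe set and array. How probes were summarised is not given in the sources used here, and there were no detection calls. The mean intensity without the extreme 2% at each end was 500.0 on each array. A single 0 was replaced by the lowest intensity above it, log2 values were quantile normalized between arrays, and a floor was set at the 10th percentile (an intensity of 15.8). After leaving out 64 control probe sets, the upper 60% by mean log2 level were tested, 27022 in all. Symbols came from the platform annotation, with 0 updates from RefSeq's GRCm38.p6 table; leaving controls aside, 34945 probe sets had 1 symbol, 932 several and 9160 none here. Each gene was represented by its brightest tested single-symbol probe set, giving 13382 genes.

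The 2 groups were compared with limma 3.58.1 (R 4.3.3; lmFit, eBayes with trend, two-sided), with Benjamini-Hochberg adjustment over all tested probe sets and a threshold of 0.05. The members, the list of related genes and the markers were chosen with earlier results of these data known. The design named 10 pairs of genes to correlate, and 6 could be formed. Genes named were all members, related genes past the threshold, the counterparts of each member in the list, and the 3 genes most like each member, apart from Gm and Rik names; other related genes were named after their values were seen. Tested on simulated data drawn from the mean and SD of each of the 27022 probe sets, the fit recovered 70% of 50 probe sets lowered by a log2 change of 2 and 24% of 50 lowered by 1, with 7 false calls. Array correlations ran from 0.747 to 0.975, with 0 identical pairs. Alternatives covered normalization, filter, floor, variance trend, array weights, replicate number, Xist, probe set choice, omitted arrays and a call rule after the series' design text, which names 9 pairwise comparisons that 4 and 6 arrays do not give and was applied as 2 in 3 of all 24 smoke-control pairs. Figures used matplotlib 3.10.9 (Python 3.11.15).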

Additional observations from a re-analysis of the deposited data

How the results depend on the processing

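The log2 differences of the 4 genes kept their sign and moved by less than 1 SD of the smoke arrays in every alternative on the same probe set, and their median ran from -2.64 to -2.09. Irf7 and Irf9 passed throughout. Related genes called lower were 4 with array weights, where Stat2 and Trim25 (-0.85) were added. Stat2 was added too under the rule after the series' design text and when the 25th percentile was the floor. In the other direction 1 was called, Ube2f, with arrays numbered 1 to 4, with or without the replicate block. Trim25 also passed without smoke arrays 1 and 2, at -0.90. Over all genes, 94 were lower and 3 higher, and 142 and 41 with array weights, 298 and 181 under the rule after the series' design text, 331 and 426 with arrays numbered 1 to 4, and 339 and 452 with these and the replicate block. The number higher was 8 as deposited, 5 with median centring or the floor at the 25th percentile, 7 without the filter, 10 in the upper 40% or without smoke arrays 1 and 2, and 6 with Xist as a covariate. Over single omissions 58 to 101 were lower, with 58 without control replicate 2 and 59 without control replicate 3, and 1 to 7 higher. Same-numbered arrays deviated from their group means with correlations of -0.07, 0.17, -0.06 and -0.05. Over all 24 smoke-control pairs the range was -0.29 to 0.28, so the numbers gave no sign of pairing. So few correlations cannot show that the mice were unpaired.

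Among uncalled values, Herc4 was at -0.020 as deposited, -0.10 with median centring, -0.070 with array weights, -0.11 when smoke arrays 1 and 2 were left out and -0.014 with Xist as a covariate, and from -0.086 to 0.070 over single omissions. Usp14 was at -0.32 with array weights and at -0.29 when smoke arrays 1 and 2 were left out, and from -0.034 to 0.34 over single omissions. With median centring 1 pair of genes passed over the smoke arrays, Uba7 with Ube2l6 (r = 0.83, exact permutation, adjusted p = 0.0417), and Usp18 with Uba7 was at 0.63, against -0.23; as deposited, Usp18 with Herc6 was at -0.086 and Herc6 with Uba7 at -0.32. Without the 2 arrays farthest from the median, over 4 arrays, Usp18 with Uba7 was at 0.86 and Herc6 with Ube2l6 at -0.45. Omissions of single smoke arrays, and of smoke arrays 1 and 2, were chosen after seeing the data. Over single omissions r ran from -0.026 to 0.31 for Usp18 with Herc6, -0.78 to 0.59 for Usp18 with Uba7, -0.058 to 0.56 for Usp18 with Ube2l6, 0.018 to 0.82 for Herc6 with Uba7, -0.53 to 0.81 for Herc6 with Ube2l6 and 0.23 to 0.90 for Uba7 with Ube2l6. Without smoke arrays 1 and 2, again over 4 arrays, Herc6 was at 0.95 with Uba7 and 0.89 with Ube2l6. The cause of these shifts was not tested. Dim probe sets, those of Ube2l6 and the lesser ones of Herc6 and Uba7, limit what the arrays can show.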
